A study of Mus musculus with 12 samples.

Results

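The genes described here encode CTCF, subunits and the loader of cohesin, and proteins found in complexes with ADNP. They are Ctcf, Rad21, Smc3, Stag2, Nipbl, Adnp, Chd4, Cbx1, Cbx3 and Cbx5, 10 of the 21911 protein-coding gene symbols of the GENCODE M21 annotation. They were listed by name because the study discussed CTCF and ADNP at copies of B2, a family of short interspersed elements (SINEs). The rule has no threshold on a measured value, although the list was drawn up with earlier results of these data known. Each gene was followed through the peaks of histone H3 acetylated at lysine 9 (H3K9ac) that overlapped its body or the 5 kb on either side of its start. This gave 108 of the 102889 peaks in the 6 peak lists.

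H3K9ac was measured by chromatin immunoprecipitation and sequencing in livers of adult mice. The groups were C57BL/6J (B6, 2 individuals), MSM/Ms (MSM, 2 individuals) and their reciprocal hybrids with 1 library each. The hybrid called F1 BM had its B6 genome from the mother, and the one called F1 MB from the father. The reference genome was built from B6, while MSM is an inbred strain of another mouse subspecies. The labels name no transgene or treatment, and the mark was read in whole liver, which holds several cell types. Each parental list came from its own mouse, so the spread within a strain includes differences between animals.

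CTCF is a zinc finger protein that binds a long DNA motif and blocks the spread of chromatin contacts. Cohesin is a ring of SMC and kleisin subunits that is loaded by NIPBL, extrudes DNA loops and stalls at bound CTCF. ADNP binds DNA together with the remodeller CHD4 and with HP1 proteins, which read methylated H3K9, and the B2 consensus holds a site that both CTCF and ADNP can bind. H3K9ac marks active promoters, so the peaks tell where the chromatin of these genes carried the mark, not how much protein was made or where it bound.

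The lists ranged from 11619 peaks in B6 replicate 2 to 22968 peaks in B6 replicate 1, with 17310 and 17584 in MSM and 20173 and 13235 in F1 BM and F1 MB. The longest and the shortest list were thus both from B6. A promoter peak, which is a peak overlapping 1 kb on either side of the gene start, was listed for 6123 to 9688 genes per library. The study states the number of read pairs per library, which is not used here, and the deposited lists gave no read counts per peak. A peak that was missing could not be told from a peak too weak to be called. Of 6 hepatocyte marker genes, 5 had a promoter peak in all 6 lists, the exception being Hnf4a, which had none at the start used. For each gene only 1 start, the outermost annotated one, was read. A peak at another start of Hnf4a, more than 1 kb away, would not have been counted. Of 12 marker genes of Kupffer, endothelial, stellate and bile duct cells, none had a promoter peak in all 6 lists and 4 (Stab2, Lyve1, Kdr and Sox9) had one in some. Of 5 markers of other tissues, none had a promoter peak in any list. Among all protein-coding genes, 23.6% had a promoter peak in all 6 lists and 54.2% had one in no list.

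The promoter sequences below are those of Ctcf, whose acetylated domain began inside the window in every list, Adnp, the only one with a match of the Zbtb33 palindrome among the 7 genes with a window, and Cbx5, whose window lies between its start and that of the neighbouring gene Hnrnpa1. Each is the 250 bases before the RefSeq gene start (build GRCm38.p6), written 5′ to 3′ on the strand of the gene. The Ctcf window is chr8:105636288-105636537 on the plus strand, the Adnp window is chr2:168207113-168207362 on the minus strand and the Cbx5 window is chr15:103239853-103240102 on the minus strand. Capitals mark motif matches. In Ctcf and Adnp the run of CCGCCC is a GC box (GGGCGG on the other strand), the other run in Adnp is the palindrome bound by Zbtb33, and in Cbx5 the runs are, in order, a YY1 motif, a pair of GC boxes and a CCAAT box read on the other strand.

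Ctcf promoter: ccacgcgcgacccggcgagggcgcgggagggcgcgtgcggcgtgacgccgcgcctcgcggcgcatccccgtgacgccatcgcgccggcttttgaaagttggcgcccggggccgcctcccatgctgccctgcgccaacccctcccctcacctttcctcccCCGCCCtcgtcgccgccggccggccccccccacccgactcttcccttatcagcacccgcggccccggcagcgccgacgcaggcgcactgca

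Adnp promoter: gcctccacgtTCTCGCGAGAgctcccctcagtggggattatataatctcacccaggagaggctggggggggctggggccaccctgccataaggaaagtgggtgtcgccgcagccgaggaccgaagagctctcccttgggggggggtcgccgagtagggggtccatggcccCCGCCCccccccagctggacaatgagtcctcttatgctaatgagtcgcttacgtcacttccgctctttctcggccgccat

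Cbx5 promoter: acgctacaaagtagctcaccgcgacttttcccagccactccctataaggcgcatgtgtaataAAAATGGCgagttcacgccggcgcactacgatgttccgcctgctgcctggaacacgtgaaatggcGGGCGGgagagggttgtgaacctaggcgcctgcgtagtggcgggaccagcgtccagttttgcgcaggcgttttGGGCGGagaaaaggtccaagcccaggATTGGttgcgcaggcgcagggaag

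RefSeq promoter windows, from 250 bases before to 50 after the start, were found for 7 of the 10 genes, all but Rad21, Stag2 and Nipbl. Each motif was searched for on both strands. The GC box, GGGCGG, occurred in 7 of 7 windows, and in 35.7% of 32851 windows of the same length. The YY1 motif, AANATGGC, occurred in 4 of 7 (Ctcf, Smc3, Adnp and Cbx5), against 6.05% of all windows. In Ctcf and Smc3 that match lay in the 50 bases after the start, which are not printed, and in Adnp it straddled the start, so its last 3 letters are not printed and it is not set in capitals. CCAAT occurred in 2 of 7 windows and in 37.4% of all. The palindrome bound by Zbtb33 occurred in 1 of 7 and in 0.466% of all. No window held the ETS motif CCGGAAG (8.86% of all), TATAAA (13.6%), the NRF1 motif (0.971%) or the 14-letter CTCF motif searched for (0.0609%). A match describes the letters only and does not show binding. The windows were rich in CpG, with an observed over expected ratio from 0.578 in Adnp to 1.16 in Ctcf, against a median of 0.384 over all windows. Their GC content ran from 52.7% in Cbx1 to 75.3% in Ctcf and Cbx3, against a median of 52.7%. The motif shares over all windows were not matched for CpG or GC, so they are not read as particular to these genes.

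All 10 genes had a promoter peak in at least 1 list. A promoter peak stood in all 6 lists for 5 of the 10, namely Ctcf, Stag2, Nipbl, Cbx3 and Cbx5, against 23.6% of all protein-coding genes. By library, 10 genes had one in B6 replicate 1, 7 in B6 replicate 2, 10 in MSM replicate 1, 9 in MSM replicate 2, 8 in F1 BM and 9 in F1 MB. Among all protein-coding genes the shares, in the same order of libraries, were 44.2%, 27.9%, 35.5%, 36.2%, 35.3% and 31.7%. Of the 108 peaks, 90 (83.3%) were promoter peaks and 18 lay elsewhere at the genes. The map of the peaks by distance from the start shows that most of the others continued the promoter domain.

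**Figure D1:**
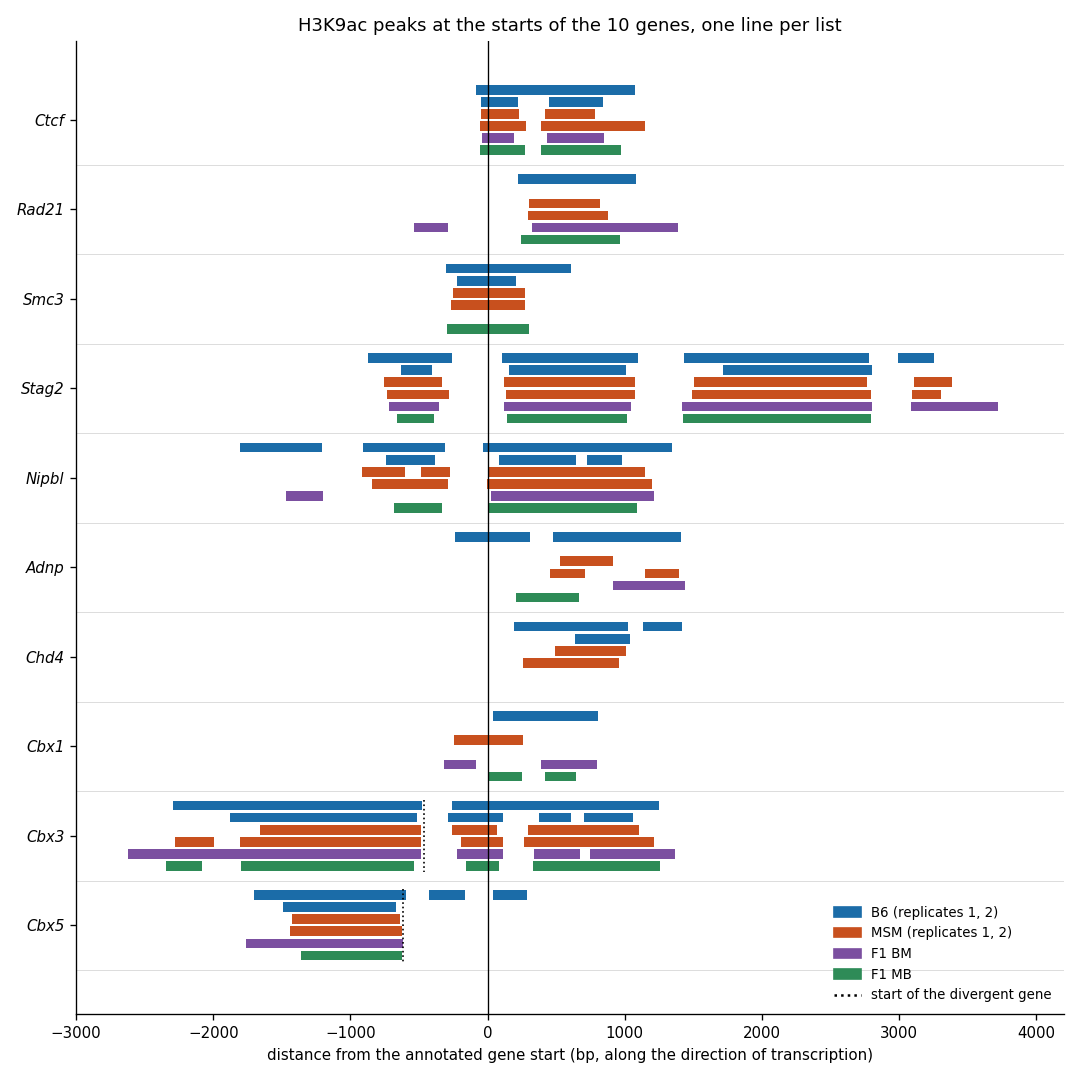
Positions of the H3K9ac peaks of each gene relative to its annotated start, in bp along the direction of transcription, with 1 line per list in the order B6 replicates 1 and 2, MSM replicates 1 and 2, F1 BM and F1 MB. Empty lines are lists without a peak in the plotted range, and at Cbx5 only B6 replicate 1 has peaks on the gene's own side of the dotted line that marks the start of Hnrnpa1. The MSM peaks in the Adnp intron lie further right than the range plotted.

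The strength of a promoter was read as its fold enrichment over background, a linear ratio given by the authors' peak caller, taking the highest among the promoter peaks. Because the lists differ in scale, with median promoter folds from 3.84 in F1 BM to 7.17 in B6 replicate 1, each fold was also given as its percentile among all promoter folds of the same list. Stag2 and Cbx3 ranked highest, with medians at the 98.3rd percentile for each over 6 lists. The peak that gave Cbx3 this rank lay on the side of a neighbouring gene, Hnrnpa2b1, and the median on the side of Cbx3 itself was 76.3, below those of Ctcf and Nipbl. Ctcf followed at 92.0 and Nipbl at 84.0. The other 6 lay below the middle, with Rad21 at 47.4, Cbx5 at 38.9 (from a peak on the side of its neighbour Hnrnpa1), Smc3 at 30.6, Chd4 at 29.3, Adnp at 23.3 and Cbx1 at 23.2. The range of Nipbl lay above that of Rad21, the next in order. The ranges of Stag2 (91.6 to 99.2) and Cbx3 (96.7 to 99.6) overlapped each other and that of Ctcf (57.2 to 97.3). The range of Nipbl (76.2 to 90.1) lay within that of Ctcf. Among the lower 6 each range overlapped that of its neighbours in the order, and the ranges of Stag2 and Cbx3 lay above those of all 6.

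**Figure D2:**
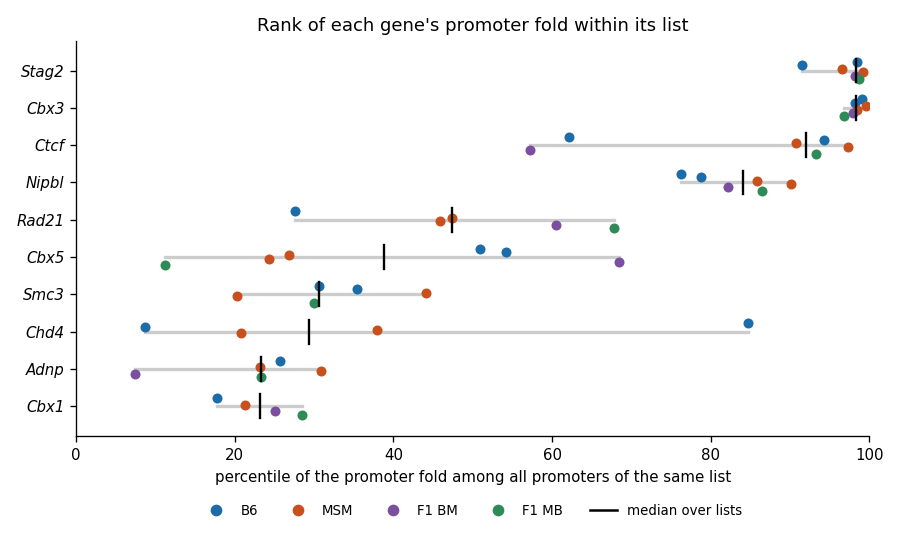
Percentile of the promoter fold of each gene among all promoter folds of the same list, ordered by the median over lists (black line), with 1 point per list and a grey bar from the lowest to the highest. Stag2 and Cbx3 sit at or above 91.6 in every list, while Chd4 spans 8.69 to 84.7 within B6 alone. The values of Cbx3 and Cbx5 are those of peaks on the side of their neighbours.

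Ctcf (ENSMUSG00000005698.15, chr8:105636568-105682922, plus strand) encodes the insulator protein itself. Its promoter fold was 8.22 in B6 replicate 1, 8.72 in B6 replicate 2, 9.95 in MSM replicate 1, 13.6 in MSM replicate 2, 4.09 in F1 BM and 9.34 in F1 MB. Both MSM values lay above both B6 values, a difference of 3.31 between means of 8.47 ± 0.354 and 11.8 ± 2.60 (SD, n = 2 each), against a pooled SD within strains of 1.85 (two-sided exact permutation p = 0.33, the smallest that 4 libraries allow). These values were not all read at the same place. That of B6 replicate 1 came from a summit 596 bp downstream of the start, the other parental values from summits 102 to 105 bp downstream. At the parental summits 583 to 596 bp downstream the folds were 8.22 and 6.28 in B6 and 6.74 and 6.93 in MSM, with overlap between the strains. As percentiles within the lists the highest folds of the strains overlapped too, at 62.1 and 94.2 in B6 and 90.8 and 97.3 in MSM. F1 BM had the lowest percentile, 57.2, and F1 MB stood at 93.3.

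The left edge of the Ctcf domain varied over 46 bp between the lists and its right edge over 366 bp. The domain began 41 to 87 bp upstream of the start in the 6 lists, inside the printed window, whereas its last base lay between 780 and 1146 bp downstream. In 5 lists the domain consisted of a pair of peaks, the left one over the start and the right one beginning 387 to 447 bp downstream, with 108 to 245 bp between them. In B6 replicate 1 a single peak of 1164 bp covered both. A pair of genes on the other strand start inside this stretch, Agrp 825 bp and the lincRNA Gm5914 917 bp downstream of the Ctcf start. The domain covered the start of Agrp in every list but MSM replicate 1, and that of Gm5914 in B6 replicate 1, MSM replicate 2 and F1 MB. ChIP signal has no strand, so acetylation of Ctcf and of these genes cannot be told apart there. In F1 BM the right peak was the higher of the pair (4.09 against 3.75), and in the other 4 lists with a pair the left one was.

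Rad21 (ENSMUSG00000022314.10, chr15:51962240-51991747, minus strand) encodes the kleisin that closes the cohesin ring. The promoter fold of Rad21 was 5.47 in B6 replicate 1, 5.70 and 5.66 in MSM, 4.23 in F1 BM and 6.16 in F1 MB. B6 replicate 2 had no promoter peak. As percentiles within the lists the values ran from 27.6 in B6 replicate 1 to 67.9 in F1 MB, and the strains could not be compared with 1 B6 value. The main peak began 219 to 325 bp downstream of the start and covered an untranslated exon. F1 BM alone had a further peak upstream, from 534 to 286 bp before the start, at a fold of 2.24.

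Smc3 (ENSMUSG00000024974.10, chr19:53600398-53645833, plus strand) encodes one of the pair of SMC subunits. Smc3 had a promoter fold of 5.68 and 4.47 in B6, 5.54 and 4.37 in MSM and 4.36 in F1 MB. The strains overlapped, with a difference of -0.12 against a pooled within-strain SD of 0.839. A single peak spanned the start in all 5 lists, from 223 to 305 bp upstream to 208 to 608 bp downstream. F1 BM had no promoter peak although its list was longer than that of F1 MB. A promoter peak in every list but F1 BM was seen at 1.82% of the genes with a peak in the other 5 lists, a rule chosen after the Smc3 values were seen.

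Stag2 (ENSMUSG00000025862.14, chrX:42149317-42277185, plus strand) encodes the cohesin subunit that contacts CTCF. Stag2 had a promoter fold of 17.5 and 8.20 in B6, 12.4 and 16.2 in MSM, 9.51 in F1 BM and 12.2 in F1 MB. Both MSM values lay between the B6 replicates, so the strains overlapped. Its acetylated stretch was divided. It held an upstream peak between 874 and 261 bp before the start, a first downstream peak between 104 and 1094 bp, a wide peak between 1415 and 2799 bp in all 6 lists, and a last peak beginning 2995 to 3111 bp downstream in B6 replicate 1, both MSM lists and F1 BM. The peak between 104 and 1094 bp was the highest in every list. Gm37564, annotated on the other strand, starts 864 bp downstream of the Stag2 start, inside that peak in all 6 lists, so acetylation of Stag2 and of Gm37564 cannot be told apart there. No list had a peak over the annotated start itself. Peaks up to 500 bp apart were joined into domains, which made the Stag2 domain 4127 and 857 bp wide in B6 and 4144 and 4034 bp in MSM. In B6 replicate 2 the peaks stood further apart and were not joined.

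Nipbl (ENSMUSG00000022141.7, chr15:8290617-8444463, minus strand) encodes the cohesin loader. The fold at the Nipbl promoter was 9.79 and 6.63 in B6, 8.96 and 10.3 in MSM, 5.53 in F1 BM and 7.87 in F1 MB. As percentiles within the lists these were 76.2 and 78.8 in B6, 85.8 and 90.1 in MSM, 82.2 in F1 BM and 86.4 in F1 MB. Both MSM percentiles lay above both B6 percentiles by more than the spread within either strain, with a difference of 10.4 points and an SD within strains of 2.50 when pooled (exact permutation, two-sided, p = 0.33, again the smallest value). This was so at 16.7% of all genes with a promoter peak in all 4 parental lists, and the call was lost with the same covered length in every list. The folds as deposited overlapped. The main peak ran from about the start to between 976 and 1343 bp downstream in the 6 lists, divided in B6 replicate 2 by a gap of 73 bp. A smaller upstream peak, or in MSM replicate 1 a pair of them, within 915 to 274 bp before the start, stood in 5 lists and was missing in F1 BM. F1 BM and B6 replicate 1 had a peak still further upstream, reaching 1471 and 1804 bp before the start.

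**Figure D3:**
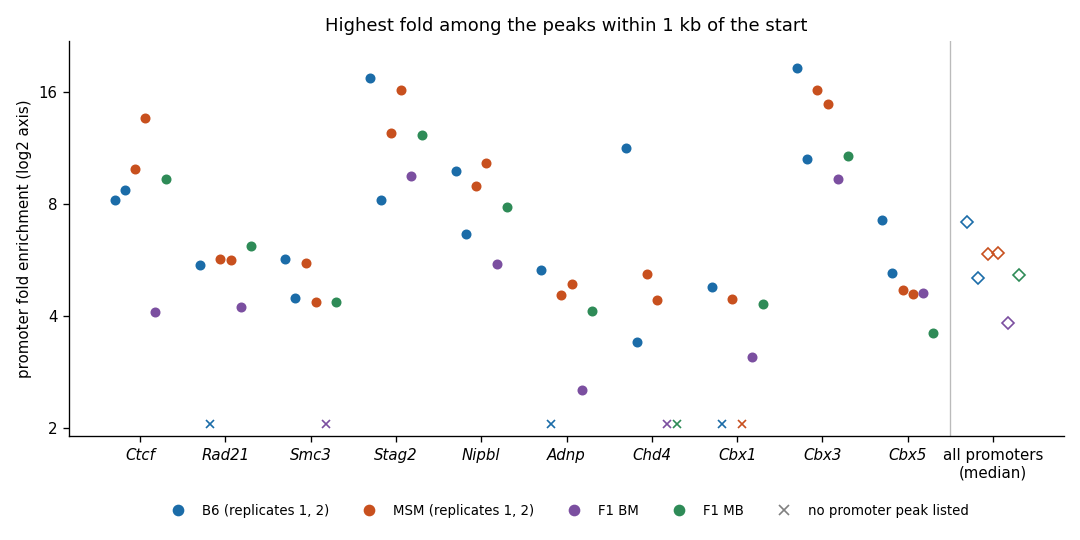
Promoter fold enrichment of each gene on a log2 axis, with 1 point per list in the order B6 replicates 1 and 2, MSM replicates 1 and 2, F1 BM and F1 MB, a cross where no promoter peak was listed, and open diamonds for the median over all promoters of each list. The MSM points of Ctcf (9.95 and 13.6) lie above its B6 points, those of Cbx5 (4.70 and 4.57) lie below, and Rad21, Smc3, Adnp, Chd4 and Cbx1 have at least 1 cross.

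Adnp (ENSMUSG00000051149.15, chr2:168180986-168207112, minus strand) encodes the DNA-binding homeobox and zinc finger protein of the complex. At Adnp the promoter fold was 5.33 in B6 replicate 1, 4.54 and 4.87 in MSM, 2.53 in F1 BM and 4.13 in F1 MB. B6 replicate 2 had no promoter peak. A missing peak in B6 replicate 2 alone, as at Rad21 and Adnp, occurred at 13% of the genes with a promoter peak in the other 5 lists, a rule chosen after these values were seen. The peaks of the 5 lists did not share a position. That of F1 MB ended 667 bp downstream of the start and that of F1 BM began 917 bp downstream, and only B6 replicate 1 had a peak over the start.

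Of the 21 regions at the 10 genes, 1 was called strain-specific, for MSM, and it lay at Adnp. Of all 25803 regions, 3.38% were called for MSM. The call was lost with the same number of peaks, or the same covered length, in every list. Both MSM lists had a peak 7362 to 7691 bp downstream of the start, chr2:168199421-168199750, in an intron of Adnp and of the readthrough transcript Gm20716. Its fold was 3.67 in MSM replicate 1 and 3.45 in MSM replicate 2, at the 18.6th and 11.7th percentile of all peaks of those lists, and no other list had a peak there. The stretch covered in both MSM lists, chr2:168199525-168199730, is shown because this was the 1 region called strain-specific. It is printed from the B6 reference on the strand of Adnp, and no capitals are set.

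Adnp intron: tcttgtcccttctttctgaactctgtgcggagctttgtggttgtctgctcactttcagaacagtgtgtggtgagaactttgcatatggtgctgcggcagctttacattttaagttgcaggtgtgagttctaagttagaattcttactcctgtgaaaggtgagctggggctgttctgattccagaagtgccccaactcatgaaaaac

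This stretch had a GC content of 45.6% and an observed over expected CpG ratio of 0.190, and 10.7% of its 206 bases were marked as repeats in the reference. The nearest B2 copy in the B6 reference lay 1921 bp away.

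Chd4 (ENSMUSG00000063870.12, chr6:125095981-125130591, plus strand) encodes the ATP-dependent remodeller that ADNP shares with the NuRD complex. At Chd4 the promoter fold was 11.3 and 3.40 in B6 and 5.20 and 4.41 in MSM. Both MSM values fell between the B6 replicates. As percentiles the B6 replicates stood at 84.7 and 8.69, further apart than the replicates of either strain at any other of the genes, and the MSM replicates at 37.9 and 20.8. The main peak lay between 192 and 1040 bp downstream of the start. Neither F1 list had a promoter peak at Chd4. That pattern, chosen after it was seen, occurred at 0.878% of the 5579 genes with a promoter peak in all 4 parental lists.

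Cbx1 (ENSMUSG00000018666.13, chr11:96789127-96808640, plus strand) encodes HP1 beta. Cbx1 had a promoter fold of 4.79 in B6 replicate 1, 4.44 in MSM replicate 1, 3.10 in F1 BM and 4.30 in F1 MB. One library of each parental strain had no promoter peak, so the missing values did not follow the strain. Both F1 lists had a pair of peaks here, where the parental lists with a signal had 1.

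Cbx3 (ENSMUSG00000029836.15, chr6:51470360-51483704, plus strand) encodes HP1 gamma and starts 466 bp from Hnrnpa2b1 on the other strand. Its promoter fold was 18.6 and 10.6 in B6, 16.2 and 14.9 in MSM, 9.35 in F1 BM and 10.7 in F1 MB, with overlap between the strains. In all 6 lists that highest peak lay on the Hnrnpa2b1 side. Peaks were assigned to a side by whether their summit lay before or after the midpoint between the starts. On the side of Cbx3 the highest fold was 13.0 and 3.74 in B6, 7.64 and 9.75 in MSM, 5.16 in F1 BM and 3.13 in F1 MB. On the Hnrnpa2b1 side it was thus 1.43 to 3.43 times higher in the 6 lists. The percentiles of Cbx3 given above are therefore those of the peak of the neighbouring gene. The highest fold on the side of Cbx3 alone stood at percentiles of 91.1 and 15.3 in B6, 74.6 and 87.9 in MSM, 78.0 in F1 BM and 4.12 in F1 MB. On its own side Cbx3 had at least 2 separate peaks in every list but B6 replicate 1, where 1 peak of 1511 bp covered them.

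Cbx5 (ENSMUSG00000009575.14, chr15:103191544-103239816, minus strand) encodes HP1 alpha and starts 616 bp from Hnrnpa1 on the other strand. Its promoter fold was 7.24 and 5.21 in B6, 4.70 and 4.57 in MSM, 4.60 in F1 BM and 3.60 in F1 MB. Every one of these values came from a peak on the Hnrnpa1 side. On its own side Cbx5 had a peak in B6 replicate 1 only, at folds of 3.99 and 3.70. The count of 5 genes with a promoter peak in all 6 lists thus includes Cbx5 only through its neighbour. The window printed for Cbx5, which ends at its RefSeq start, was touched by a peak in that 1 list. A protein-coding start within 1 kb upstream on the other strand was present at 2 of the 10 genes, and at 6.77% of all genes.

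**Figure D4:**
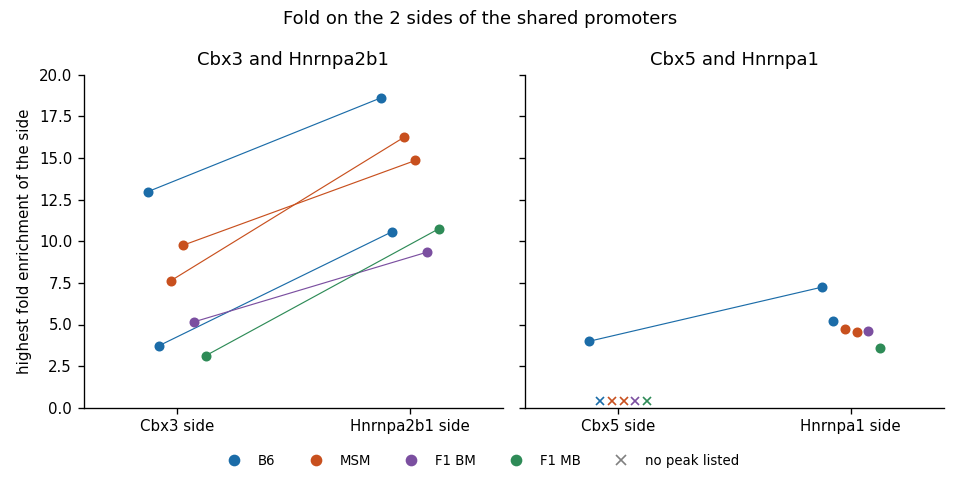
Highest fold enrichment on each side of the promoters shared by Cbx3 with Hnrnpa2b1 (left) and by Cbx5 with Hnrnpa1 (right), with 1 point per list, lines joining the sides of a list and crosses where no peak was listed. The Hnrnpa2b1 side is higher in each of the 6 lists, and the Cbx5 side has a value in B6 replicate 1 only (3.99).

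The comparison of strains asked whether the promoters of these genes were acetylated more strongly, or over a longer stretch, in B6 or in MSM. Of the 7 genes with a promoter peak in all 4 parental lists, 1 had a higher fold percentile in both B6 libraries, Cbx5 at 51.0 and 54.3 against 26.8 and 24.3 in MSM (a difference of -27.1 points, MSM minus B6, two-sided exact permutation p = 0.33). This was so for 18.6% of all 5579 such genes. A higher percentile in both MSM libraries was seen at 1 of the 7, Nipbl, as given above. On the fold as deposited the calls were Cbx5 for B6, against 11.2% of all genes, and Ctcf for MSM, against 8.59%. The Ctcf values came from summits at unlike places, as given above. The difference at Cbx5 lay in the peak on the Hnrnpa1 side. With every list limited to the same covered length, 5 genes could be compared and 0 were called for either strain. Of all 2887 genes compared at that setting, 16.1% were called for B6 and 18.6% for MSM.

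A domain at the start was present in all 4 parental lists for 5 genes, Ctcf, Smc3, Stag2, Nipbl and Cbx3. A domain was called longer on one side when both libraries of a strain reached at least 200 bp beyond both of the other. On the upstream side 0 of the 5 were called for B6 and 0 for MSM, where 4.8% and 0.829% of 5186 promoters were. On the downstream side 0 of the 5 were called for either strain, against 5.65% for B6 and 2.16% for MSM. The median domain width over the 5 genes was 3148 and 890 bp in the B6 replicates and 2062 and 2042 bp in the MSM replicates. The difference between strains, 33 bp, was far smaller than the spread within strains (pooled SD 1129 bp). The median over all 5186 promoters likewise put the B6 replicates, at 1493.5 and 684 bp, on either side of the MSM replicates, at 995.5 and 1010 bp. The sign of the 33 bp difference changed with the setting. It was -381.5 bp with peaks up to 1000 bp apart joined and 338.75 bp at the same covered length. Without B6 replicate 1 it was 1162 bp, and without B6 replicate 2 it was -207 bp.

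The peaks of the 4 parental lists merged into 21 regions at the 10 genes, of which 11 had a peak in all 4 lists, where 30.1% of all 25803 regions did. None was B6-specific, that is, in both B6 lists and neither MSM list, where 3.29% of all regions were. The Adnp intron was the 1 MSM-specific region, where 3.38% of all were. The 5 regions found in exactly 1 parental list, where 35.8% of all regions were, all came from B6 replicate 1, the longest list. When every list was limited to the same number of peaks, the Adnp intron was no longer called and a region at Rad21 was called for MSM in its place. That was 1 of 14 regions, where 5.59% of all 15856 regions were called for MSM and 6.31% for B6. At the same covered length the call turned, with 1 of 11 regions for B6, at Chd4, and 0 for MSM. Of all 12520 regions there, 2.92% were called for B6 and 6.11% for MSM. With 1 B6 library against both of MSM, the rule is looser. Without B6 replicate 2, 5 regions were B6-specific (29.6% of all regions) and 1 was MSM-specific (3.43%), and without B6 replicate 1, 4 were MSM-specific (22.1%). Of the 11 shared regions, F1 BM had a peak in 8, where 97.1% of all 7777 shared regions had one, and F1 MB had a peak in 10, where 91.2% did. Each cross is 1 library. The 3 missing in F1 BM were those at Smc3, Chd4 and upstream of Nipbl, and the 1 missing in F1 MB was that at Chd4.

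B2 copies were located to ask whether any lay at the edge of an acetylated domain of these genes. The genome match gave 101947 copies, or 37.4 per Mb. Copies were searched for in the B6 reference only. Insertions present in MSM alone could therefore not be seen beside the MSM and F1 domains. At the 10 genes with their flanks there were 80 copies in 594.885 kb, or 134 per Mb when pooled. The densities of the single genes ranged from 81.8 per Mb at Nipbl to 530.3 per Mb at Cbx1. The median of the single densities over all 21911 genes was 42.7 per Mb. A pooled density over all genes was not computed. A promoter domain was found in 6 lists at Ctcf, Stag2, Nipbl and Cbx3 and in 1 to 5 lists at the others. No copy lay within 500 bp outside an edge of the promoter domain in any list at any of the 10 genes, where 7.58% of 9745 genes had one in at least 1 list. The closest was 1147 bp from the domain of Cbx1 in the downstream direction. At Ctcf the nearest copy lay 3125 to 3171 bp upstream, at Smc3 1743 to 1825 bp upstream, and at Stag2 9083 bp or more away. None of the 21 regions overlapped a B2 copy. No share over all regions stands beside this count, so it is not read as particular to these genes.

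The other genes of these pathways, from lists of related genes, were read by the same rules. Of 46 such genes outside the germline, 25 had a promoter peak in all 6 lists, 15 in some and 6 in none, where 23.6% of all protein-coding genes had one in all 6. Of 11 other cohesin genes, 5 had one in all 6. Smc1a, the partner of Smc3 in the ring, had a fold of 5.25 and 7.03 in B6, 4.86 and 5.21 in MSM, 4.07 in F1 BM and 5.05 in F1 MB. Mau2, the partner of NIPBL in the loader, had 12.5 and 10.4 in B6, 6.47 and 5.65 in MSM, 5.22 in F1 BM and 5.66 in F1 MB, so its B6 values did not overlap those of MSM. Stag1, which can take the place of STAG2 in the ring, had a promoter peak in no list, while Stag2 ranked near the top. The cohesion and mitosis genes Esco2, Cdca5 and Espl1 were also listed nowhere.

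All 5 germline counterparts lacked a promoter peak in every one of the 6 lists, as did 54.2% of all protein-coding genes. These were Ctcfl, the testis relative of CTCF, and the meiotic cohesin genes Smc1b, Rec8, Stag3 and Rad21l. Of 15 ADNP and CHD4 partner genes, 6 had a promoter peak in all 6 lists and 1, Chd5, in none. Of 9 genes of HP1 partners and H3K9 methylation, 5 had one in all 6, and 1, Suv39h1, in none. Trim28, a corepressor that binds HP1, had the highest median percentile of that list, with folds from 6.82 to 12.9. Of 11 other architectural factors, 9 had one in all 6, with Zfp143 highest at 8.88 to 21.3.

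**Figure D5:**
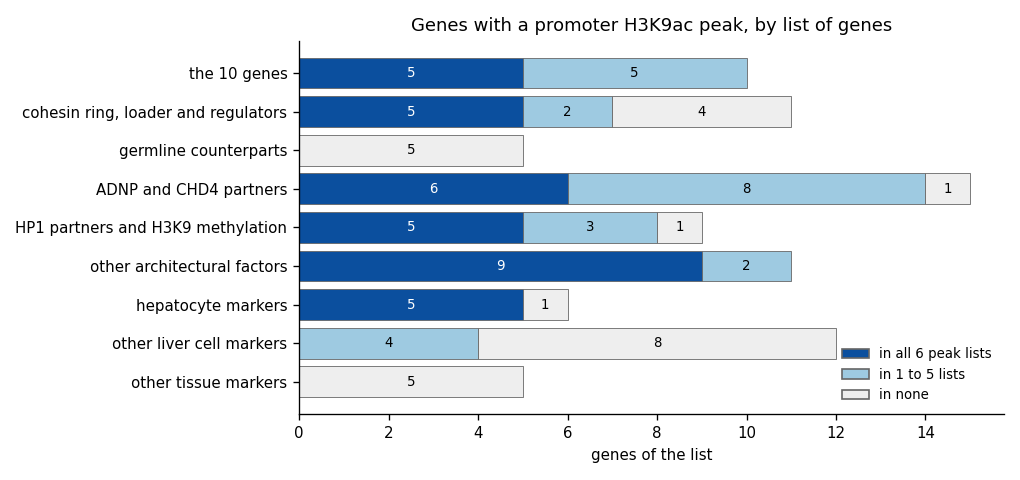
Number of genes in each list with a promoter H3K9ac peak in all 6 peak lists (dark), in 1 to 5 (light) and in none (grey). The germline counterparts and the markers of other tissues have 0 genes in any list, and 9 of 11 architectural factors have a peak in all 6.

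Of the 46 genes, 26 had a promoter peak in all 4 parental lists. The percentile was higher in both B6 libraries at 5 of them (Mau2, Mta2, Maz, Zfp143 and Usf1) and higher in both MSM libraries at 5 (Pds5a, Esco1, Chd3, Atrx and Ldb1). Both counts stand beside the 18.6% and 16.7% of all genes given above. Of 21 with a domain in all 4 lists, 0 reached further upstream in either strain and 1, Usf1, reached further downstream in B6. Among all 5186 promoters, 4.8% reached further upstream in B6 and 0.829% in MSM, and 5.65% further downstream in B6.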

How the data were processed

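H3K9ac ChIP-seq libraries of 6 adult livers were analysed, and the 6 input libraries were not analysed here. The labels and the study's methods describe formaldehyde-fixed liver, antibody ab4441 and 50-bp paired reads on a HiSeq2500. According to the methods the authors trimmed reads with Trim Galore and mapped them to mm10 (GRCm38) with Bowtie 2, whereas the submitters' processing notes list Trim Galore, HISAT2, SAMtools and MACS2. Which aligner made the lists, and whether input served as control, are not given in the sources used here. MSM reads, too, were placed on the B6 reference, which can lose them over diverged sequence, and the part of this in any strain difference was not tested.

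The deposited files were narrowPeak lists, 1 per library, called separately. For each peak the authors gave a fold enrichment (a linear ratio over background), a −log10 p-value, a −log10 q-value, a score made from the q-value (not used) and the position of the summit. The lowest −log10 q of the deposited lists lay between 1.30 and 1.35. The lists hold no counts per peak and the study's read totals were not used, so no intervals for counting error were made.

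Positions were intersected in Python 3.11.15 with numpy 2.4.6 and pysam 0.24.0, and figures were drawn with matplotlib 3.10.9. Genes were taken from GENCODE M21, 1 start per protein-coding symbol. A promoter peak overlapped 1 kb either side of the start. Peaks up to 500 bp apart were joined, and the joined domain nearest the start, within 500 bp of it, was taken. Regions were the merged peaks of the 4 parental lists, and a peak sharing at least 1 bp with a region counted. B2 copies were found with blastn 2.17.0 from 2 copies read from the reference, at 80% identity over at least 100 bp. For single values the strains were compared by exact permutation (two-sided) of the 4 parental libraries, which has 6 assignments and a smallest p of 0.33. The functions were first tested on simulated data.

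The members and the lists of related genes were chosen by name, with earlier results of these data known. All 10 members were named. Of the related genes, those called by a rule, Smc1a, Stag1, Mau2 and the germline counterparts were named, and any other related or marker gene was named after its values were seen. Promoter sequences are from RefSeq. Alternatives were the same number of peaks or covered length per list, a stricter q-value, other windows, starts, joins and overlaps, fold instead of percentile, other B2 limits, and each library left out.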

Additional observations from a re-analysis of the deposited data

How the results depend on the processing

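The 5 genes with a promoter peak in all 6 lists were the same under 5 alternatives to the lists, windows and starts, and the count was 5 to 7 over the other 5 lists when a library was left out (7 without B6 replicate 2, 6 without F1 BM). The percentile call of Nipbl and Cbx5 was 0 genes at the same covered length. It was 2 at the same number of peaks, at the stricter q-value, within 2 kb of the start and at the APPRIS start, and the fold as deposited replaced Nipbl by Ctcf. Of all genes compared, 34.8% were called for either strain at the same covered length and 37.4% at the same number of peaks. Leaving out a parental library makes the rule 1 library against 2, under which 65.3 to 69.8% of all genes were called, and gave 4 to 5 called genes. Nipbl and Cbx5 stay called there by construction. The other genes called then differed with the library left out: Chd4 was higher in MSM without B6 replicate 1 and in B6 without B6 replicate 2. Domains further upstream numbered 0 to 1 (Stag2 in MSM without B6 replicate 1, Nipbl in B6 without B6 replicate 2, Cbx3 in B6 without MSM replicate 2) and further downstream 0 to 3 (Stag2 in MSM without B6 replicate 1; Rad21, Smc3 and Chd4 in B6 without B6 replicate 2). Of all promoters, 15.4% reached further upstream and 24.8% further downstream in MSM without B6 replicate 1, 26.0% and 30.1% in B6 without B6 replicate 2, and 8.43% further upstream in B6 without MSM replicate 2. Strain-specific regions numbered 1 to 6, with 4 MSM-specific without B6 replicate 1 and 5 B6-specific and 1 MSM-specific without B6 replicate 2, and at the same covered length the 1 region was at Chd4, for B6. The cause of these changes was not tested. The difference in median width ranged from -381.5 bp with peaks up to 1000 bp apart joined to 338.75 bp at the same covered length, and from -207 to 1162 bp with a library left out. The count of genes with a B2 copy near a domain edge was 0 under the 7 alternatives that could raise it, and the narrower B2 limits could only give 0. Replicate numbers did not pair the samples: the deviations of same-numbered libraries from their strain means correlated at -0.029 for domain width and -0.023 for fold across promoters, and with the replicate block the width difference was 33 bp, which a balanced block cannot change. With 2 libraries per strain the exact permutation test cannot go below 0.33, 1 library per F1 cross gives no error, and without read counts per peak a missing peak may be a weak one.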
